A study of Mus musculus with 8 samples.

Results

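The genes described here are those of the extracellular matrix, of the receptors that bind it and of the proteases that cut it. They were chosen by symbol: 42 genes, on 92 spots, matched a fixed set of family names (collagens, laminins, integrins, TIMP inhibitors, MMP and ADAM proteases, glypicans, galectins and single matrix proteins). The array holds 9984 spots, of which 6610 list 1 gene symbol, and these gave 2922 genes. By class, 19 of the 42 encode matrix proteins, 10 encode receptors or proteins bound to them, 10 encode proteases of the metalloproteinase families or their inhibitors, and 3 encode lectins or a lectin ligand.

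The cells were C2C12, a mouse myoblast line. Those called MBC were kept in medium taken from CAPAN-1, a pancreatic cancer line of human origin, and those called MBN in control medium. The number after the name is the hours of incubation. MBC14 and MBC24 were each set against control medium of the same hour (MBN14, MBN24) and against control medium at the start (MBN0), which gives 4 comparisons. All groups grew in DMEM with glutamine and fetal bovine serum, and no genotype or treatment other than the conditioned medium is named in the labels. Each comparison has 2 arrays of the same RNAs with the dyes crossed. On array A the conditioned RNA was in Cy5, and on array B it was in Cy3. For array B of MBC14 over MBN0 the dye field, which was used here, and the written labelling protocol contradict each other. The 2 arrays of a comparison therefore count as 1 replicate, and nothing in the labels says that further cultures were grown. The array is named a human array while the RNA is from mouse. Which mouse transcript a human probe bound is not known.

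The extracellular matrix is the network of secreted proteins around cells. In muscle it has an interstitial part built on fibrillar collagens and a basement membrane built on laminins and type IV collagen. Integrins, with syndecans and glypicans beside them, tie the cell to this network. Matrix metalloproteinases cut it, and the TIMP proteins block those enzymes. Myoblasts make much of their own matrix, and its turnover is part of muscle repair and of muscle loss.

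A value below is the deposited score after the array median was taken off, in score units. It is a signed value per spot with unknown scale and log base, so no fold change is given and levels of different genes cannot be compared. Being signed and of unknown scale, a score also gives no level by which the labelled cell type could be checked. The labels do not settle its direction either. Across all 2922 genes the deposited values of arrays A and B correlated below 0 in 4 of 4 comparisons, between -0.32 and -0.13. Each score was therefore taken to be Cy5 over Cy3, and the sign of array B was turned. The turn was chosen because it makes arrays A and B agree, so their agreement after it does not test the choice. In the other reading, called conditioned-over-control, array B stays as deposited. If that reading holds, a mean with array B turned reflects the difference between arrays with crossed dyes, not between the media. Which reading holds was not tested. Positive values are read as higher in conditioned medium, which is likely from the test and reference channels of the labels. Unless stated, values are in the Cy5-over-Cy3 reading with array B turned, and ± is the SD of the 2 arrays. A gene passed the size rule where its mean lay 1 unit or more from 0 and both arrays lay 0.5 or more to that side. Single comparisons have no test. The matched-hour test is limma on the MBC14 over MBN14 and MBC24 over MBN24 means (n = 2), adjusted over all genes at a threshold of 0.05.

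Array SDs lay between 1.34 and 1.58 score units. Each probe is spotted as 2 neighbours, and the 42 genes have 46 such pairs. The median gap within these pairs lay between 0.43 and 1.15 units over the 8 arrays, against 0.51 to 0.97 over all pairs. Single scores of about 1 unit are thus within reach of spot error.

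**Figure D1:**
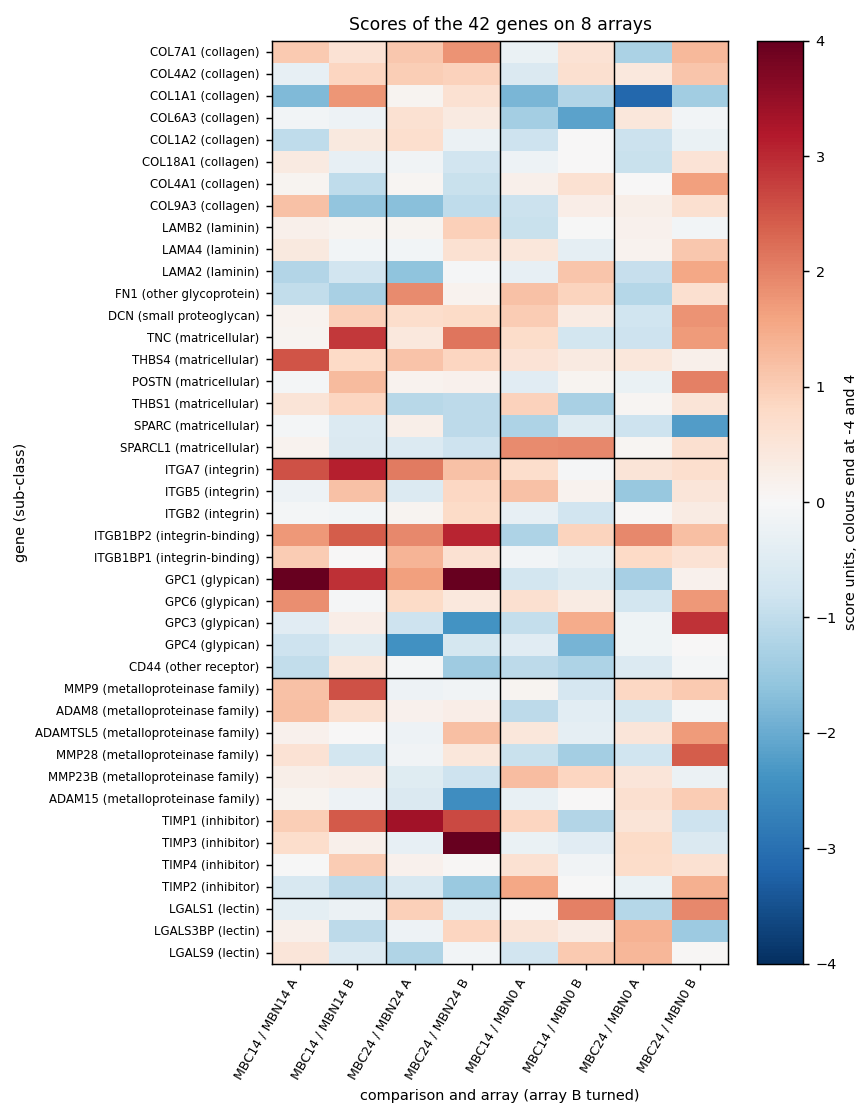
Scores of the 42 genes (rows, by sub-class) on the 8 arrays (columns, in pairs by comparison, with array B turned), in score units from blue (lower in conditioned medium) to red (higher). GPC1, ITGA7, ITGB1BP2 and TIMP1 are red in the 4 matched-hour columns, ITGB1BP2 also in both columns of MBC24 over MBN0 (1.92 and 1.21), and TIMP3 has 1 dark cell, 4.31 on array B of MBC24 over MBN24.

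At the matched hours, 4 of the 42 genes rose in conditioned medium in the Cy5-over-Cy3 reading and 0 fell, where limma called 5.2% of all genes, 3.08% higher and 2.12% lower. The 4 were the receptor-class genes GPC1, ITGB1BP2 and ITGA7 and the inhibitor TIMP1. With the A arrays left out 0 of the 42 and 0 of all 2922 genes passed in limma (5 and 303 at an unadjusted p under 0.05), while the scores stayed at 4.60 for GPC1, 2.73 for ITGB1BP2, 2.54 for TIMP1 and 2.14 for ITGA7. With the B arrays left out 3 of the 42 passed, all but ITGB1BP2, and 128 of all genes. No collagen, laminin, matricellular protein, metalloproteinase or galectin passed in limma. At an unadjusted p under 0.05, limma gave 11 of the 42, against 22.8% of all genes. Under the conditioned-over-control reading 0 of the 42 and 0.0% of all genes (0.0% higher, 0.0% lower) passed in limma, with 1 of the 42 (TNC) and 3.11% of all genes at an unadjusted p under 0.05.

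GPC1 encodes glypican-1, a heparan sulfate proteoglycan held on the cell surface by a lipid anchor, which binds growth factors such as FGF2. Its scores were 6.37 on array A and 2.94 on array B in MBC14 over MBN14. In MBC24 over MBN24 they were 1.63 and 6.27. All 4 lay above 0, but the array with the high value changed between hours. The matched-hour mean was 4.30 ± 0.40 (SE, adjusted p = 0.00199 in limma). Its 2 spots were furthest apart on array A of MBC14 over MBN14, at 7.18 and 5.55, and closest on array A of MBC24 over MBN24, at 1.63 and 1.63. Against control medium at 0 h GPC1 scored -0.73 and -0.52 at 14 h and -1.32 and 0.18 at 24 h, so the rise over the matched controls was not seen over MBN0. With array B left as deposited the means were 1.72 ± 6.58 at 14 h and -2.32 ± 5.59 at 24 h.

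The other 3 glypicans did not pass in limma. GPC4 scored -0.83 and -0.53 on arrays A and B at 14 h and -2.41 and -0.70 at 24 h, with a matched-hour mean of -1.12 ± 0.41 (SE, adjusted p = 0.148). GPC3 passed the size rule downward at 24 h (-1.62 ± 1.11) and averaged -0.10 at 14 h. GPC6 averaged 0.90 and 0.60. The 4 family members thus lay on both sides of 0.

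ITGA7 encodes the integrin alpha 7 chain, which pairs with beta 1 as the main laminin receptor of muscle. It scored 2.54 and 3.10 on arrays A and B of MBC14 over MBN14, and 2.07 and 1.18 in MBC24 over MBN24. The arrays were on one side of 0 at both hours, but the 2 spots of the probe disagreed on array A, at 1.33 and 3.76 at 14 h and at 1.35 and 2.80 at 24 h. The matched-hour mean was 2.22 ± 0.43 (SE, adjusted p = 0.0232 in limma). Over MBN0 it scored 0.71 and -0.04 at 14 h and 0.53 and 0.66 at 24 h. As conditioned over control, the matched-hour mean was 0.084 ± 0.41 (SE, adjusted p = 0.995). The other 2 integrins on the array, ITGB2 (the leukocyte beta 2 chain) and ITGB5 (which pairs with alpha V), averaged 0.18 ± 0.39 and 0.31 ± 0.39 (SE) at the matched hours and did not pass.

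ITGB1BP2 encodes melusin, a muscle protein that binds the tail of integrin beta 1. It is no integrin itself and was picked up by its symbol. Its scores were 1.73 and 2.41 in MBC14 over MBN14 and 1.92 and 3.04 in MBC24 over MBN24. At 24 h its spots read 0.29 and 3.56 on array A and 2.05 and 4.03 on array B. The matched-hour mean was 2.28 ± 0.39 (SE, adjusted p = 0.0152 in limma), and -0.45 ± 0.39 (SE) in the conditioned-over-control reading. Its 24 h value over MBN0 also passed the size rule, at 1.92 and 1.21, while at 14 h over MBN0 the arrays disagreed at -1.23 and 0.90. ITGB1BP2 was the only 1 of the 42 to pass the size rule in 3 of the 4 comparisons. ITGB1BP1, which also binds the beta 1 tail, had a matched-hour mean of 0.74 ± 0.39 (SE, adjusted p = 0.299). CD44, the hyaluronan receptor, had -0.50 ± 0.39.

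TIMP1 encodes a secreted inhibitor of the matrix metalloproteinases, known for its induction by inflammatory cytokines. It scored 1.0 and 2.45 in MBC14 over MBN14 and 3.37 and 2.63 in MBC24 over MBN24. The 2 arrays were closest at 24 h, where the spots read 3.31 and 3.44 on array A and 2.65 and 2.61 on array B. The matched-hour mean was 2.36 ± 0.44 (SE, adjusted p = 0.0196 in limma). Over MBN0 the arrays went opposite ways at both hours, with 0.87 and -1.17 at 14 h and 0.51 and -0.82 at 24 h. Read as conditioned over control, those values over MBN0 became 1.02 ± 0.22 and 0.67 ± 0.22, the first of which passed the size rule, while the matched-hour mean became -0.18 ± 0.44 (SE).

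The promoter of TIMP1 is shown because it is the called gene for which a mouse promoter sequence was at hand. RefSeq gives for mouse Timp1 (GRCm38.p6, plus strand, chrX:20869916-20870215) these 300 bases, which run from 250 before the start of the gene to 50 after it. Capitals mark the single match to the GC box.
Timp1: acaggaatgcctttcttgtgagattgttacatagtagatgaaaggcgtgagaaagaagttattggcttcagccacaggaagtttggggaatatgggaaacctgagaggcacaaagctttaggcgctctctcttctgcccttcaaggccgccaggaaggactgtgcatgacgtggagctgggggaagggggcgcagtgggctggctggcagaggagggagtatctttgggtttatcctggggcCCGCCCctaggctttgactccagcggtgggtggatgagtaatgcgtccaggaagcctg
Both strands were searched for 4 motifs. The GC box GGGCGG, bound by Sp1, was found once on the minus strand, with its first base 8 bases before the start, and 35.7% of 32851 mouse promoters of that length hold it. The E-box CANNTG (72.3% of promoters), the AP-1 site TGANTCA (7.81%) and the TATA box TATAAA (13.6%) had 0 matches, which says only that these letters are not in this window.

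The other 3 TIMP genes did not pass in limma. TIMP3, whose product stays bound to the matrix, averaged 1.22 ± 0.46 (SE, adjusted p = 0.158), but its 24 h mean of 2.00 ± 3.27 rested on array B, with -0.32 on array A and 4.31 on array B. On that array its spots read -0.72 and 9.34, so 1 spot carried the value. TIMP2, which takes part in the activation of MMP2, lay below 0 on 4 of 4 matched-hour arrays (-0.65, -1.05, -0.65 and -1.48), with a mean of -0.96 ± 0.38 (SE, adjusted p = 0.175). TIMP4 averaged 0.31 ± 0.39. The inhibitors thus differed among themselves, with TIMP1 high and TIMP2 low on the same 4 arrays.

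**Figure D2:**
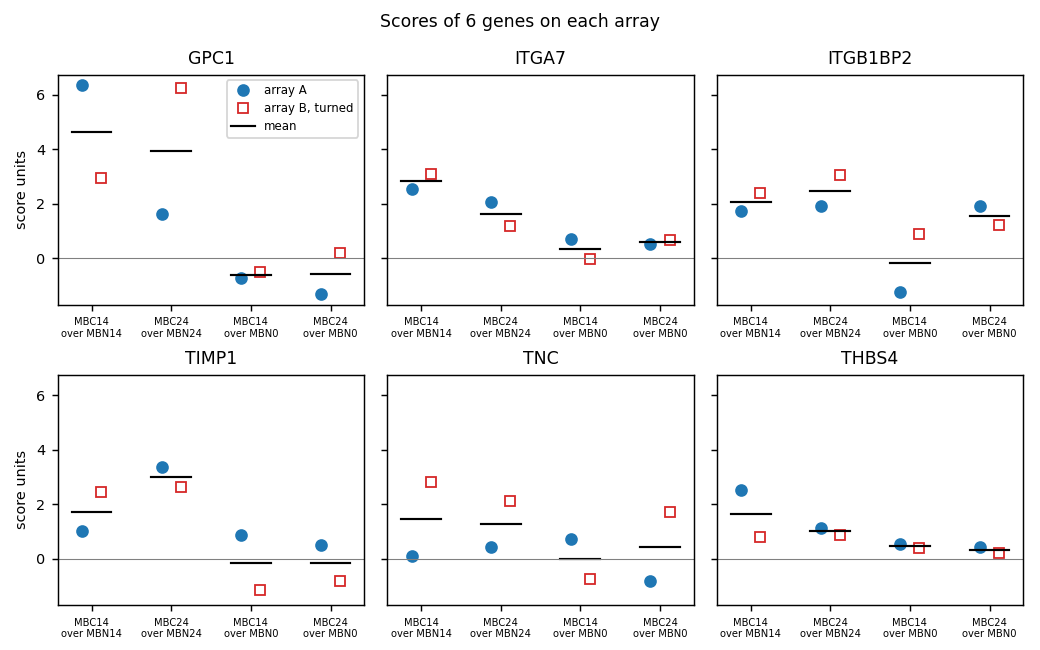
Scores of 6 genes in the 4 comparisons, in score units. Circles are array A, squares array B after turning, and bars the mean of both. GPC1, ITGA7, ITGB1BP2 and TIMP1 are above 0 on every matched-hour array, from 1.0 to 6.37, while their values over MBN0 lie between -1.32 and 1.92.

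Print position is a measured fact beside these calls. The probes of ITGA7, ITGB1BP2 and GPC1 lie within 262 spots of one another in file order (spots 1473 to 1734), a span noticed after the values were seen. Of the 99 genes with a spot there, limma called 12 higher and 8 lower (12.1% and 8.08%), against 2.76% and 1.91% of the 2823 genes elsewhere. The span was set by ITGA7, ITGB1BP2 and GPC1, which are among the 12, so part of this contrast was fixed in advance. The median of the 99 genes was -0.05 and that of the others -0.05, and after centring on 51 neighbouring spots they were 0.094 and 0.0029. After centring on 51 neighbouring spots all 4 genes still passed in limma (adjusted p from 0.000288 to 0.0241). After centring on 11 neighbouring spots 0 passed, with means of 2.39 for ITGA7, 1.91 for GPC1, 1.08 for ITGB1BP2 and 0.53 for TIMP1 and adjusted p from 0.177 to 0.495. The part of position in the calls was not tested further.

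At least 1 of the 4 comparisons passed the size rule for 21 of the 42 genes, against 50.7% of all genes, and at least 1 of the matched ones for 14, against 30.7%. In MBC14 over MBN14, 7 of the 42 genes passed the size rule, 16.7% against 19.9% of all genes. 6 were higher (9.1% of all genes were) and 1 was lower (10.8%). Beside the 4 genes above, MMP9 and THBS4 were higher and FN1 was lower. MMP9, the gelatinase that cuts denatured collagen and type IV collagen, scored 1.17 and 2.54 at 14 h, and -0.21 and -0.14 at 24 h. THBS4, a thrombospondin of tendon and muscle matrix, scored 2.52 and 0.78 at 14 h and 1.13 and 0.86 at 24 h on arrays A and B, all above 0. Its matched-hour mean was 1.32 ± 0.40 (SE, adjusted p = 0.0877), short of the threshold. FN1, fibronectin, scored -0.99 and -1.30 at 14 h and 1.90 and 0.14 at 24 h. Read as conditioned over control, 2 of the 42 passed (6.37% of all genes did, 3.56% higher and 2.81% lower). They were COL1A1, lower at -1.78 ± 0.01, and COL9A3, higher at 1.37 ± 0.29, and both were looked up after their values were seen.

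In MBC24 over MBN24, 11 of the 42 genes passed the size rule, 26.2% against 17.6% of all genes. 5 were higher (7.94% of all genes) and 6 lower (9.69%). Beside the 4 called genes, COL7A1 was higher, with 1.09 and 1.79 on the 2 arrays. It encodes the collagen of anchoring fibrils, and its matched-hour mean was 1.13 ± 0.40 (SE, adjusted p = 0.131). The lower genes were GPC3, GPC4, ADAM15, COL9A3, THBS1 and TIMP2. ADAM15, a membrane-bound disintegrin and protease, scored -0.58 and -2.49, and COL9A3, a chain of the cartilage collagen IX, -1.68 and -1.0. THBS1 and TIMP2 averaged -1.07 each, THBS1 with SD 0.06 and TIMP2 with SD 0.58. Under conditioned over control 0 of the 42 passed, where 6.02% of all genes did (3.7% higher, 2.33% lower).

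TNC, tenascin-C, an adhesion-modulating glycoprotein of remodelling tissue, had the largest matched-hour mean of the matrix class, 1.37 ± 0.38 (SE, adjusted p = 0.0707 in limma). Array B carried it at both hours, with 0.10 and 2.82 at 14 h and 0.42 and 2.13 at 24 h, so it missed the size rule at both. Without the turn of array B the same values gave -1.11 ± 0.40 (SE, adjusted p = 0.995), the opposite sign.

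**Figure D3:**
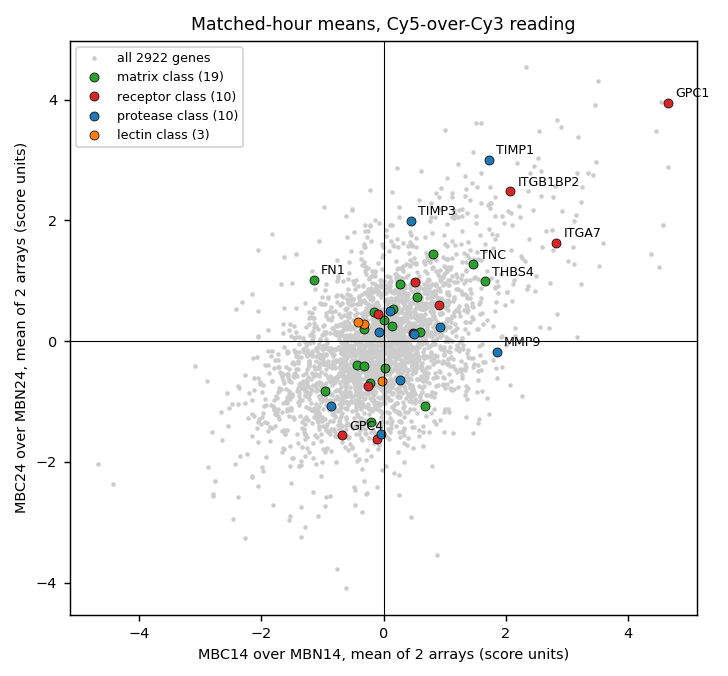
Mean score of each gene in MBC14 over MBN14 (horizontal) against MBC24 over MBN24 (vertical), in score units, with the 42 genes coloured by class over all 2922 genes in grey. GPC1 stands at 4.65 and 3.95, and ITGA7, ITGB1BP2 and TIMP1 lie at 1.63 or more on both axes, while matrix genes lie between -1.34 and 1.65.

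The 2 matched hours share no RNA. Across the 42 genes their means correlated at 0.71 in the Cy5-over-Cy3 reading and at -0.19 in the other. Without the 4 called genes these were 0.41 and 0.04 (38 genes), and over all genes 0.53 and -0.06. The genes share the arrays and probes, and both hours share the dye layout, so these are descriptions. Past the size rule in 1 direction at both hours were 4 of the 42 genes, the same 4 that limma called, against 6.67% of all genes, and in the other reading 0 of the 42, against 0.445%. 0 of the 42 passed it in opposite directions, against 0.103% of all genes (0 of the 42 and 0.24% in the other reading). Without regard to size, 6 of the 42 had both arrays above 0 at one hour and below 0 at the other, against 7.36% of all genes, with FN1, MMP9 and THBS1 the furthest apart.

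Against control medium at 0 h, a comparison that includes the time in culture, the matched-hour leaders gave way to other genes. In MBC14 over MBN0, 7 of the 42 passed the size rule, 16.7% against 15.7% of all genes. The 3 higher ones (7.29% of all genes) were SPARCL1, MMP23B and FN1, and the 4 lower ones (8.38%) were COL6A3, COL1A1, CD44 and MMP28. SPARCL1, a relative of the matrix protein SPARC, had the closest arrays of these, 1.89 and 1.91. FN1 scored 1.16 and 0.89. COL6A3, a chain of the collagen VI of the pericellular muscle matrix, scored -1.36 and -2.13. COL1A1, a chain of type I collagen, scored -1.83 and -1.16. MMP23B scored 1.24 and 0.85 and MMP28 -0.89 and -1.36, both members of the metalloproteinase family, and CD44 -1.05 and -1.23. The spots of these 3 genes disagreed on 1 array each. On array B they read -0.39 and 2.08 for MMP23B and -3.17 and 0.45 for MMP28. On array A they read 0.01 and -2.11 for CD44. If the dyes of array B here were as the labelling description says, the conditioned-over-control values apply, in which 4 of the 42 passed (10.3% of all genes, 5.61% higher and 4.72% lower), and these were THBS1 and TIMP1 higher and GPC3 and ITGB1BP2 lower.

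In MBC24 over MBN0, 3 of the 42 passed, 7.14% against 19.3% of all genes, with 1 higher (8.38% of all genes) and 2 lower (10.9%). The lower genes were COL1A1, with -3.13 and -1.38, and SPARC, a collagen-binding matricellular protein, with -0.83 and -2.24. The higher gene was ITGB1BP2. COL1A1 was thus low over MBN0 at both hours, but both comparisons share MBN0 as control, so the second hour is not a repeat. Its 24 h spots read -2.34 and -0.41 on array B. Read as conditioned over control it passed at neither hour, with -0.34 ± 2.12 at 14 h and -0.87 ± 3.19 at 24 h. In MBC14 over MBN14 its arrays were at -1.77 and 1.78, which cancel in this reading and agree in the other, and in MBC24 over MBN24 they were at 0.11 and 0.60. COL1A2, the other chain of type I collagen, scored -0.83 and 0.01 over MBN0 at 14 h and -0.85 and -0.26 at 24 h and did not pass.

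The arrays of MBC24 over MBN0 differed from each other over these genes. On array B, 17 of the 42 genes scored 1 or more after turning (40.5%), against 16.8% of all genes. On array A, 3 did (7.14%), against 14.6%. The median of the 42 was 0.63 on array B and 0.02 on array A. As deposited, the 42 genes correlated at 0.02 between these arrays, where all genes correlated at -0.27. In the conditioned-over-control reading 8 of the 42 passed the size rule there (19.0%), against 6.84% of all genes. Of them 7 were lower (16.7% of the 42), against 3.73% of all genes, and 1 was higher, against 3.11%. The 7 were TNC, DCN, COL7A1, LAMA2, GPC6, MMP28 and LGALS1, with means from -1.62 to -1.23, and the 1 was LGALS3BP (1.41 ± 0.05), all looked up after their values were seen. On array B after turning, 1 spot carried the value of GPC6 (-1.08 and 4.55), DCN (-0.10 and 3.67) and TNC (-0.04 and 3.45). The spots of COL7A1, LAMA2, MMP28 and LGALS1 there were all above 0.

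By class, the receptor genes had the highest matched-hour medians in the Cy5-over-Cy3 reading. In MBC14 over MBN14 the median was 0.49 for receptors, 0.36 for proteases and inhibitors, 0.03 for matrix proteins and -0.32 for lectins, against -0.04 for all genes. In MBC24 over MBN24 these were 0.52, 0.13, 0.26 and 0.28, against -0.11. In MBC14 over MBN0 they were -0.18, -0.15, -0.01 and 0.41, against -0.04, and in MBC24 over MBN0 0.34, 0.63, 0.32 and 0.39, against -0.03. The matched-hour order of receptors above matrix was not seen in the conditioned-over-control reading, where receptors had -0.22 and -0.08 and matrix proteins 0.04 and -0.03 at 14 and 24 h. In MBC24 over MBN24 the size rule was passed by 17.6% of all genes, 7.94% higher and 9.69% lower. It was passed by 5 of 10 receptor-class genes, 3 higher and 2 lower. Of the proteases and inhibitors 3 of 10 passed, 1 higher and 2 lower, of matrix proteins 3 of 19, 1 higher and 2 lower, and of lectins 0 of 3. The class medians were not tested against each other. Over all classes, the mean lay above 0 for 24 of the 42 genes in MBC14 over MBN14 and for 27 in MBC24 over MBN24, against 47.7% and 45.0% of all genes. Over MBN0 it did so for 20 at 14 h and 30 at 24 h, against 48.0% and 48.6%. As conditioned over control, the 4 counts were 23, 20, 23 and 12 of 42, where 51.9%, 51.8%, 51.8% and 48.5% of all genes lay above 0.

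**Figure D4:**
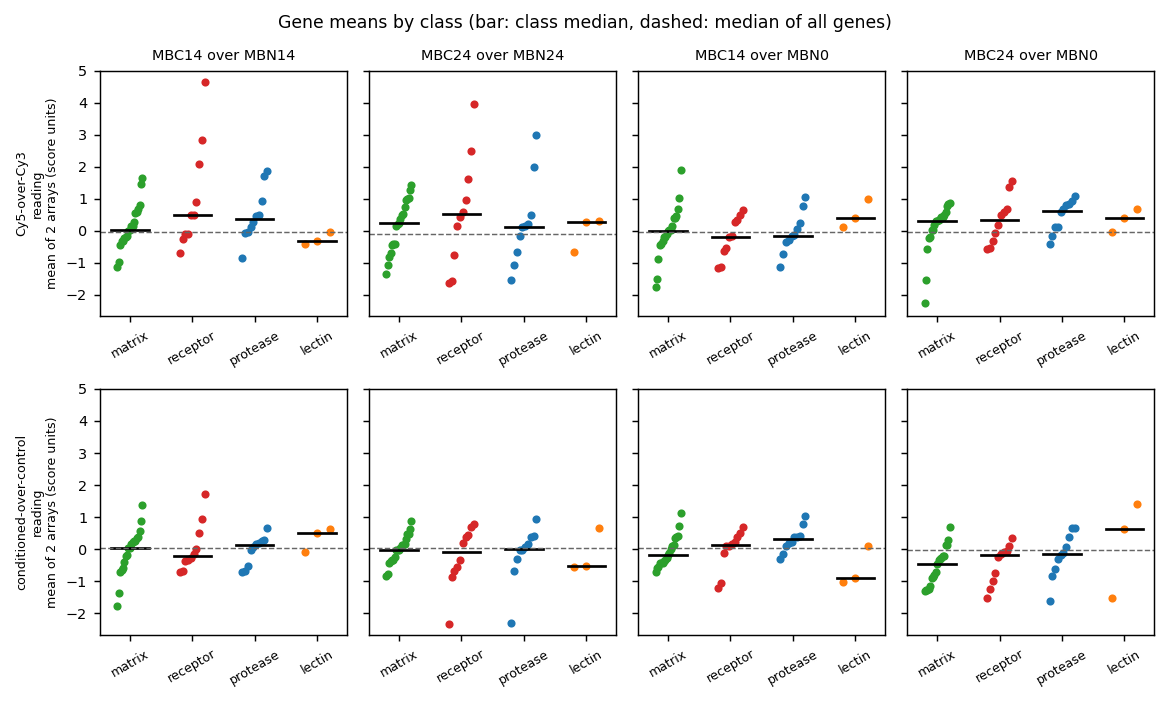
Mean score of each of the 42 genes by class (points, in score units) in the 4 comparisons, in the Cy5-over-Cy3 reading (upper row) and the conditioned-over-control reading (lower row). Bars are class medians and the dashed line is the median of all genes. Receptor medians of 0.49 and 0.52 at the matched hours in the upper row stand against -0.22 and -0.08 in the lower.

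Within the matrix class the sub-classes spread around 0. The 8 collagens had matched-hour means from -0.77 (COL9A3) to 1.13 (COL7A1), with 4 of 8 above 0 and 0 called in limma. The basement membrane collagens COL4A1 and COL4A2, which pair in one trimer, averaged -0.42 ± 0.38 and 0.61 ± 0.40 (SE). COL18A1, COL1A2 and COL6A3 lay between -0.21 and 0.16. The laminin chains LAMA2, LAMA4 and LAMB2 averaged -0.90 ± 0.38, 0.20 ± 0.38 and 0.34 ± 0.39 (SE), and LAMA2, the alpha chain of the muscle basement membrane to which integrin alpha 7 binds, was below 0 on 4 of 4 matched-hour arrays. DCN, decorin, a small proteoglycan on collagen fibrils, averaged 0.64 ± 0.38. Among matricellular genes POSTN (periostin) averaged 0.38, THBS1 -0.20, SPARC -0.36 and SPARCL1 -0.46. The remaining protease-class genes ADAM8, ADAM15, ADAMTSL5, MMP9, MMP23B and MMP28 lay between -0.79 and 0.84, with 0 of 6 called. ADAMTSL5 carries the ADAMTS name but belongs to the ADAMTS-like proteins, which have no protease domain.

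The lectin class was LGALS1 (galectin-1), LGALS9 (galectin-9) and LGALS3BP, a secreted protein bound by galectins. Their matched-hour means were -0.02 ± 0.39, -0.34 ± 0.40 and -0.05 ± 0.40 (SE), and 0 of 3 passed in limma or by the size rule. LGALS1 reached 2.02 and 1.92 on array B over MBN0 at 14 and 24 h, against -0.03 and -1.15 on array A.

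For 4 genes the array holds a second pair of spots, and these pairs often disagreed. The pairs of COL1A2 averaged -1.41 and 0.78 in MBC14 over MBN14. Those of LGALS1 averaged 1.53 and -0.75 in MBC24 over MBN0, and those of ADAMTSL5 1.94 and 0.22. Both pairs of TIMP2 lay below 0 at the matched hours, at -1.02 and -0.69 at 14 h and at -0.39 and -1.75 at 24 h.

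Related genes outside the family names showed few calls, and 0 of all genes passed in limma when read as conditioned over control. Of 4 genes of the dystrophin complex, which ties the cytoskeleton to laminin beside the integrins, 1 rose in limma, the alpha sarcoglycan gene SGCA (1.88 ± 0.41, SE, adjusted p = 0.0342), with -0.39 in the conditioned-over-control reading, while SGCB averaged -0.85 ± 0.51. Of 6 genes of collagen folding and processing 0 passed and 0 lay above 0, with PPIB at -0.90 ± 0.47 and the collagen chaperone SERPINH1 at -0.55 ± 0.38. In the other reading PPIB and SERPINH1 lay above 0, at 0.096 and 0.16, and the list median was -0.065. At 24 h over MBN0, 3 of those 6 passed the size rule downward (10.9% of all genes did). Of 9 focal adhesion genes 0 passed, with the adhesion kinase PTK2 at -0.72 ± 0.40. Of 7 cathepsins and their inhibitors 0 passed, with CTSB at -1.0 ± 0.40. Of 7 other matrix proteins 0 passed, with AEBP1 at 1.51 ± 0.38 (adjusted p = 0.055) and MFAP5 at -0.78 ± 0.38. The latent TGF-beta binding proteins LTBP2 and LTBP3 averaged 0.75 ± 0.41 and -1.34 ± 0.38, and neither passed.

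Markers of cell types were set beside these values. Limma called 3.08% of all genes higher and 2.12% lower. Of 10 muscle markers 1 passed in limma, ITGA7 itself, and the list median was 0.08. Of 7 fibroblast and smooth muscle markers, which include COL1A1, COL1A2 and DCN, 0 passed, and the median was -0.05. Over MBN0, 3 of these 7 were lower past the size rule at 14 h and 2 at 24 h, against 8.38% and 10.9% of all genes. Of the 10 muscle markers 2 were lower there at 14 h and 1 at 24 h. In both lists 0 were higher, against 7.29% and 8.38% of all genes. Of 3 epithelial markers 0 passed in limma (range -0.20 to 0.13). Past the size rule over MBN0, 2 of these 3 were higher and 1 lower at 14 h, and 0 higher and 1 lower at 24 h. Of 3 endothelial markers 1 was lower in limma, CLDN5, while ENG and VWF had means of 0.98 and 0.13 and did not pass. Past the size rule over MBN0, 1 of these 3 was lower at 14 h and 0 at 24 h, and 0 were higher. Of 7 blood markers 2 were higher in limma, HBA2 (3.97 ± 0.41, SE, adjusted p = 0.00249) and CD37 (3.28 ± 0.38, SE, adjusted p = 0.00488). Over the matched controls HBA2 scored 7.25 and 1.66 on arrays A and B at 14 h, and 1.96 and 5.0 at 24 h. CD37 scored 4.01 and 2.34, then 2.21 and 4.55. For both, as for GPC1, the array with the high value changed between hours. In the conditioned-over-control reading HBA2 and CD37 had 0.64 and -0.16. CD48 and CD74 had means of 1.55 and 0.53, HBA1, HBB and LYZ of -0.45, -0.88 and -1.16, and none of these passed. Past the size rule over MBN0, 1 of the 7 was higher at 14 h and 2 at 24 h, and 0 were lower. Their part in the results was not tested. In bulk RNA fewer cells of a type and less RNA per cell cannot be told apart.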

How the data were processed

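The authors deposited 1 signed score per spot and array, and the sources used here do not say how it was made. With a lowest deposited score of -23.57 and a highest of 24.79 the range is too wide for log2 ratios of scanned channels, so the values were treated as scores where the test plan had assumed log2 ratios. No scanner intensities were used, so dim spots could not be filtered, and the number of arrays limits the precision.

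Symbols came from the platform annotation of 2016. It lists several genes for 106 spots and none for 3268, and these were not named. Each array was centred on its median, array B was turned, spots of a gene were averaged and both arrays of a comparison were averaged. limma (version 3.58.1 in R 4.3.3) fitted the 2 matched-hour values per gene to 1 mean, two-sided, with Benjamini-Hochberg adjustment over 2922 genes. The spread per gene is moderated towards a value pooled over all genes, so that no standard error among the 42 is under 0.38. These p-values rest on the gap between the 14 h and 24 h means, from 1 RNA pair each, and on that pooled value. Disagreement of arrays A and B is averaged away before the fit and is not measured by them. For GPC1 the SDs of the 2 arrays were 2.43 at 14 h and 3.28 at 24 h, beside an SE of 0.40. Spread between cultures was not measured. Of the 42 symbols, 41 matched a mouse symbol, all but MMP23B.

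The members, lists and tests were chosen with earlier results of these data known. The genes named were every gene past the test, up to 4 each way past the size rule per comparison, the 3 largest matched-hour means per class, and genes past the size rule at both matched hours. Other genes are given to account for all 42. Alternatives were the other reading, no centring, centring on 51 or (added after the data were seen) 11 neighbouring spots, spot medians, scaling, leaving out the A or B arrays or discordant spots, single arrays, all 4 comparisons, robust eBayes and a stricter size rule.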

Additional observations from a re-analysis of the deposited data

Results flagged for a closer look

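For 6 of the 42 genes both arrays lay on one side of 0 at 14 h and on the other side at 24 h, each over control medium of the same hour, against 7.36% of all genes. The difference between the hours was not tested, and a pair of technical arrays falls this way easily. FN1 averaged 1.02 ± 1.24 at 24 h and -1.14 ± 0.22 at 14 h (SD of the 2 arrays), a difference of 2.16 score units. Its 2 spots disagreed on array A, at 0.36 and -2.34 at 14 h and at 3.30 and 0.49 at 24 h. MMP9 averaged -0.17 ± 0.05 at 24 h and 1.85 ± 0.96 at 14 h, a difference of -2.03. At 24 h the 2 spots of MMP9 lay on both sides of 0, at 0.67 and -1.08 on array A and at 0.22 and -0.50 on array B. The small SD at that hour is thus between array means that each average spots of opposite sign. THBS1 averaged -1.07 ± 0.06 at 24 h and 0.67 ± 0.25 at 14 h, a difference of -1.75. The differences were smaller for MMP23B (-0.91), COL6A3 (0.64) and the integrin chain ITGB2 (0.53). Over MBN0, 2 of the 42 did so, against 8.38% of all genes, ITGB1BP1 with a difference of 0.88 and ITGB2 with 0.71.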

How the results depend on the processing

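The 4 matched-hour calls (4 of 4 without centring, on 51 neighbouring spots, with spot medians, scaled arrays and robust eBayes) became 0 in the conditioned-over-control reading, 0 on 11 neighbouring spots (10 genes of the 42 at an unadjusted p under 0.05), 0 with all 4 comparisons (6) and 1 without discordant duplicate spots, where 28 of the 42 could be fitted, ITGA7 and ITGB1BP2 not among them. Leaving out an array letter gave 0 without the A arrays (5 of the 42 at an unadjusted p under 0.05 in limma) and 3 without the B arrays, where ITGB1BP2 did not pass. With arrays entered singly, the comparison as a block and the array letter as a covariate, 4 passed, and 98 of all genes in place of 152. That fit counts 4 arrays of 2 RNA pairs. The fit of all 4 comparisons takes them as separate values of 1 mean. Those over MBN0 share that control and include the time in culture, so it does not estimate the matched-hour mean alone. Over all genes limma called 0 in the conditioned-over-control reading, 2 on 11 neighbouring spots, 9 with all 4 comparisons, 36 of 1914 without discordant spots, 0 without the A arrays (303 at an unadjusted p under 0.05) and 128 without the B arrays. The correlation within a comparison for the block fit (-0.12) was estimated on all 8 arrays. Letters mark the dye, not a shared culture. Deviations of same-lettered arrays from the mean of their comparison correlated between -0.10 and 0.17. These deviations are the same numbers as the conditioned-over-control means, so they cannot show whether the letters pair the samples. Over 11 or 12 alternatives the adjusted p reached from 1.34e-06 to 0.995 for GPC1, 0.00201 to 0.995 for ITGA7, 0.00633 to 0.995 for ITGB1BP2 and 0.0120 to 0.995 for TIMP1. The cause of these losses was not tested.

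The size-rule counts were 7 and 11 over the matched controls (MBC14 over MBN14, then MBC24) and 7 and 3 over MBN0 (14 h, then 24 h). In that order they became 2, 0, 4 and 8 in the conditioned-over-control reading, and 3, 3, 0 and 1 at 2 units with 1 on each array (3.56%, 3.70%, 1.95% and 2.64% of all genes). Without discordant spots they were 4 over MBN14, and over MBN0 4 at 14 h and 5 at 24 h. On 11 neighbouring spots they were 4 over MBN14 and, at 24 h over MBN0, 5, and on 51 they were 12 in MBC14 over MBN0. With 1 array letter left out they ranged from 13 to 15, 13 to 15, 12 to 12 and 9 to 20, where the rule then rests on 1 array and 32.4% to 34.7% of all genes passed.

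Signs turned in the conditioned-over-control reading for the matched-hour means of COL7A1 (-0.055), GPC1 (-0.30), ITGB1BP2 (-0.45), TIMP1 (-0.18), TIMP2 (0.31), TIMP3 (-1.04), TNC (-1.11), LGALS1 (0.29) and LGALS3BP (0.041). Among genes past the size rule, signs turned at 14 h over MBN14 for FN1 (0.15), ITGA7 (-0.28), ITGB1BP2 (-0.34), MMP9 (-0.68) and TIMP1 (-0.73). At 24 h over MBN24 they turned for ADAM15 (0.95), COL7A1 (-0.35), GPC1 (-2.32), GPC3 (0.78), ITGB1BP2 (-0.56) and TIMP2 (0.41). In MBC14 over MBN0 they turned for CD44 (0.089), COL6A3 (0.38), MMP28 (0.23) and SPARCL1 (-0.0099), and in MBC24 over MBN0 for SPARC (0.70). Near 0, LGALS1 turned on 51 (0.16) and 11 (0.084) neighbouring spots, without the B arrays (0.27) and with all 4 comparisons (0.34). LGALS3BP turned on 51 (0.38) and 11 (0.86) and with all 4 comparisons (0.069), and LGALS9 with all 4 (0.036).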
